A study of Danio rerio with 24 samples.

Results

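Melanophores, the black pigment cells of zebrafish, were compared with iridophores, the reflective ones, by DNA methylation across the genome. The comparison rested on 500-bp tiles laid from the first position of each chromosome, and a tile entered where at least 5 of its CpGs had at least 5 reads in both cell types. Of 2597411 tiles with a CpG read in any library, 1543915 (59.4%) met this rule, and the level of a tile was the average of its CpG methylation levels. A tile was counted as different where the levels lay at least 30 percentage points apart.

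The series profiled whole genomes after bisulfite conversion (WGBS) in 4 cell populations, with 2 biological replicates of each combined into 1 library by the authors. Melanophores and iridophores both came from larvae of the melanophilin mutant mlphaj120 at 4 to 5 days post-fertilization (dpf), and were enriched on a density gradient and sorted. Early neural crest cells (NCCs) at the 15-somite stage and late NCCs at 24 hours post-fertilization (hpf) had been sorted by GFP from Tg(crestinA:EGFP) embryos, in which a crestin regulatory element drives the reporter. The 2 pigment cell types therefore shared strain and age, while every step from NCCs to pigment cells was also a step between fish lines. No replicate could be told apart in the combined libraries, so no value below has a replicate spread, and the tests set the reads of 1 library against those of another, not replicated conditions.

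In vertebrate genomes most CpGs are methylated, and the main exceptions are CpG-rich promoters and active enhancers. Enhancers that a cell type brings into use commonly lose methylation, so low levels in 1 cell type and not in another mark candidate regulatory DNA. Melanophores make melanin under the control of the transcription factor Mitfa, while iridophores stack guanine crystals, which they build through purine synthesis. Both arise from the neural crest, whose NCCs are the multipotent precursors measured here at the earlier stages.

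The 2 pigment cell methylomes were nearly the same in overall level. Over the 19063375 CpGs with at least 5 reads in both, 86.6% of those read in both, the mean level was 81.0% in melanophores and 80.5% in iridophores, a mean difference of -0.45 points (iridophore minus melanophore). The iridophore mean was the lower one on 25 of 25 chromosomes, by chromosome differences of -0.55 to -0.34 points. Melanophores were read more deeply, with a median of 36 reads per shared CpG against 25, and a tile rested on a median of 351 melanophore and 250 iridophore reads.

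Most tiles did not separate the cell types. The levels lay within 10 points of each other in 91.8% of tested tiles, 67.3% were above 80% in both cell types and 3.54% were below 20% in both. At the threshold of 30 points, 8960 tiles were lower in iridophores (0.58% of tested tiles) and 7146 were lower in melanophores (0.463%), so that 55.6% of the 16106 differing tiles were the iridophore-low ones. On each of the 25 chromosomes the iridophore-low tiles outnumbered the melanophore-low ones, by 1.05 times on chromosome 16 to 1.56 times on chromosome 13. A two-sided Fisher's exact test on the methylated and unmethylated reads of each tile, adjusted over all tiles by the Benjamini-Hochberg method, passed 0.05 in 75695 tiles lower in iridophores (4.9%) and 71909 lower in melanophores (4.66%). It passed in 8923 of the 8960 iridophore-low tiles and in 7116 of the 7146 melanophore-low tiles. Because 1 read can cover several CpGs and is then counted at every one of them, these p-values are too small.

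From 20 points upward, the asymmetry between the directions grew with the size of the difference. At 10 points there were 66076 tiles lower in iridophores and 60082 lower in melanophores, a ratio of 1.0998. At 20 points the counts were 20464 lower in iridophores and 19397 lower in melanophores, a ratio of 1.06. At 40 points they were 4027 and 2306, and at 50 points 1612 and 517, a ratio of 3.12. Past 60 points there were 518 iridophore-low and 66 melanophore-low tiles, and past 70 points 87 and 5. A complete switch, with 1 cell type above 80% and the other below 20%, occurred in 187 tiles with the iridophore low and 12 with the melanophore low. The lower level fell below 20% in 12.9% of iridophore-low tiles and in 3.16% of melanophore-low tiles. Around the threshold the counts were smooth, with 695 iridophore-low tiles at 30 to 31 points against 766 at 29 to 30, and 724 melanophore-low tiles against 775.

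**Figure D1:**
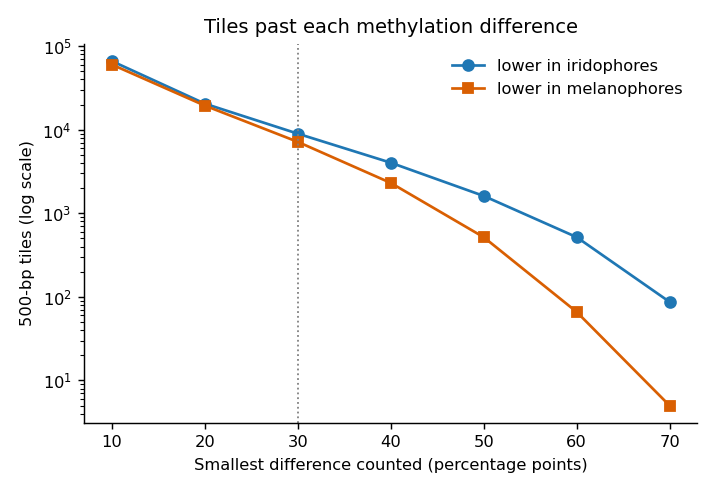
Number of 500-bp tiles (log scale) whose methylation differs by at least the number of percentage points on the x axis, for tiles lower in iridophores (circles) and lower in melanophores (squares), with the 30-point threshold dotted. The lines nearly meet at 20 points (20464 and 19397 tiles) and are 17.4 times apart at 70 points (87 and 5 tiles).

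Within a tile the CpGs moved together. Every measured CpG was lower in iridophores in 54.0% of the iridophore-low tiles, and every CpG was lower in melanophores in 57.6% of the melanophore-low tiles. The corresponding shares among all tested tiles were 1.53% and 1.21%. The call itself used these CpGs, so the shares are a description.

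Both sets of tiles started from high methylation in the neural crest, which the call did not use. Iridophore-low tiles had a median level of 95.4% in early NCCs and 92.8% in late NCCs, then 81.3% in melanophores and 38.2% in iridophores. Melanophore-low tiles had medians of 95.7% in early NCCs and 93.0% in late NCCs, with 44.3% in melanophores and 83.8% in iridophores. Over all tested tiles the medians were 92.0%, 90.6%, 88.0% and 87.4% in the same order. The late NCC level exceeded 80% in 89.8% of the 8843 iridophore-low tiles measured there and in 91.1% of the 7030 melanophore-low tiles. Over all tested tiles the share was 80.6%. All tested tiles include 46256 that were unmethylated in all 4 libraries, and such tiles cannot reach the threshold of the call. Part of the gap to all tested tiles therefore follows from the call.

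**Figure D2:**
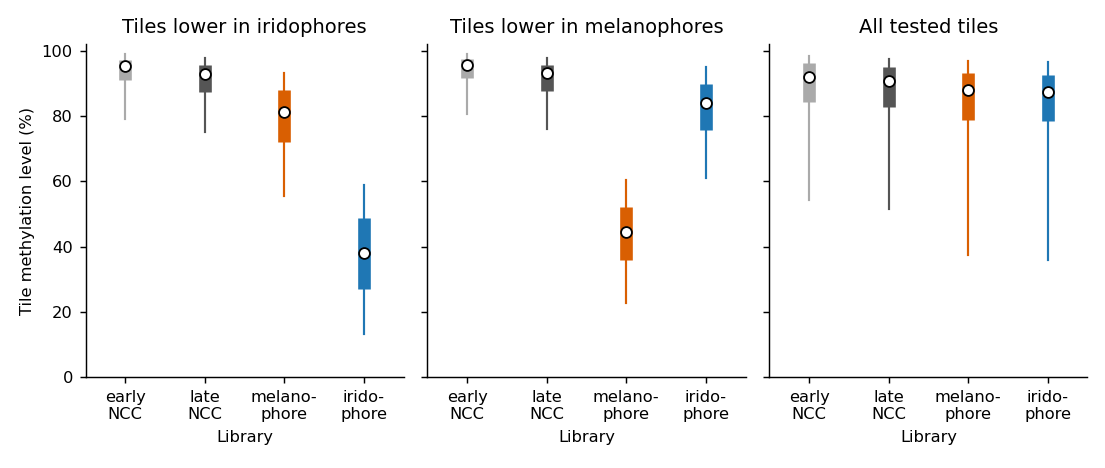
Tile methylation level (%) in the 4 libraries for iridophore-low, melanophore-low and all tested tiles, where circles are medians, thick bars span the quartiles and thin lines the 5th to 95th percentiles over tiles. In both differing sets the NCC medians lie above 92% and the other pigment cell stays above 80% at the median, while the low cell type has medians of 38.2% (iridophore) and 44.3% (melanophore).

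The difference was nearly always a level far below that of late NCCs in 1 cell type. The iridophore level lay at least 30 points below the late NCC level in 97.6% of iridophore-low tiles, and the melanophore level did so in 96.2% of melanophore-low tiles. In 92.7% of iridophore-low and 88.9% of melanophore-low tiles the higher pigment cell lay below late NCCs. There such a gap in the lower pigment cell follows from the call, so these shares are a description. The other cell type also lay at least 30 points below late NCCs in 6.15% of iridophore-low tiles (melanophores) and 2.66% of melanophore-low tiles (iridophores). Among all tested tiles, melanophores lay that far below in 2.45% and iridophores in 2.47%. A smaller difference was common in the other cell type. The late NCC level exceeded the melanophore level by a median of 9.26 points in iridophore-low tiles and the iridophore level by 7.17 points in melanophore-low tiles, against 1.45 and 1.97 points over all tested tiles. Fish line and developmental step cannot be told apart in these late NCC differences.

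Tiles that were unmethylated in late NCCs and differed between the pigment cells were rare, and most of them were melanophore-low. The late NCC level was below 20% in 2 iridophore-low and 20 melanophore-low tiles. These were 0.0226% and 0.284% of the tiles of each set measured in late NCCs, against 3.63% of all tested tiles measured there. That 3.63% stands for 55175 tiles. However, 46256 tested tiles were unmethylated in all 4 libraries, and such tiles cannot reach the threshold of the call. The low shares against all tested tiles therefore follow in large part from the call. The 20 tiles lay on 12 chromosomes and had medians of 2.81% in late NCCs, with 15.5% in melanophores and 50.1% in iridophores. That the iridophore level was above the late NCC level in all 20 follows from the call and the 20% limit. The melanophore level was above the late NCC level in 18 of the 20. In 13 of the 20 tiles the early NCC level could also be measured, with a median of 1.33%. Some stood close together, with 4 on chromosome 12 between 34608001 and 34613500 and 3 on chromosome 24 between 16987001 and 16998000 (danRer10). In the tile chr12:34613001-34613500, for instance, 16 CpGs averaged 0.35% in late NCCs, with 11.2% in melanophores and 41.6% in iridophores. These tiles were picked out after their values were seen.

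The differing tiles were sparse in CpGs. Iridophore-low tiles held a median of 1.6 CpGs per 100 bp and melanophore-low tiles 1.8, against 2.0 in all tested tiles, where a tested tile holds at least 1. Tiles with at least 3 CpGs per 100 bp made up 9.71% of iridophore-low and 12.4% of melanophore-low tiles, against 26.0% of all tested tiles. From the sparsest tiles (1 to below 1.4 per 100 bp) to the densest (6 or more), the share lower in iridophores fell from 0.876% to 0.0248% and the share lower in melanophores from 0.626% to 0.0270%. CpG density moves with read number and with the starting level, since dense tiles carry more reads and are more often unmethylated. Among tiles of 400 to 800 reads in both libraries together and a late NCC level above 80%, 0.981% were iridophore-low and 0.789% melanophore-low at 1 to below 2 CpGs per 100 bp, and 0.0228% and 0.0342% at 4 or more. The number of CpGs averaged in a tile also rose with density, from a median of 5 to 31 between the sparsest and densest tiles, and the SD of the difference over tiles fell from 8.23 to 3.27 points. The part of these in the trend was not tested. Of the iridophore-low tiles 4.40%, and of the melanophore-low tiles 4.79%, lay within 2 kb of a tile unmethylated in all 4 libraries, against 5.06% of the tested tiles that were not themselves unmethylated in all 4.

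Melanophore-low tiles were read more deeply than iridophore-low ones, with medians of 368 against 323 melanophore reads and 257 against 229 iridophore reads per tile. The balance between the libraries was alike. The ratio of melanophore to iridophore reads had a median of 1.42 in iridophore-low and 1.42 in melanophore-low tiles, and 1.401 in all tested tiles.

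Differing tiles of the same direction lay near each other. Within 1 kb, 17.0% of iridophore-low and 13.3% of melanophore-low tiles had another of their direction, against 1.27% and 1.02% of all tested tiles. A low stretch lying across a tile border also counts here, and its part in the shares was not tested. Another iridophore-low tile lay within 5 kb of 29.8% of the iridophore-low tiles, against 5.80% of all tested tiles. For melanophore-low tiles the share was 24.9%, against 4.81%. Tiles of opposite direction showed no such excess at this distance, as 4.02% of iridophore-low tiles had a melanophore-low tile within 5 kb (4.81% of all tested tiles did), and 5.09% of melanophore-low tiles had an iridophore-low one (5.80% of all tested tiles did). At 100 kb the shares with a neighbour of the same direction were 82.7% for iridophore-low and 77.6% for melanophore-low tiles, against 56.4% and 52.2% of all tested tiles. With a neighbour of the opposite direction they were 58.4% of iridophore-low tiles (52.2% of all tested tiles) and 64.7% of melanophore-low tiles (56.4%), so at this distance both kinds of neighbour were more frequent around differing tiles.

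**Figure D3:**
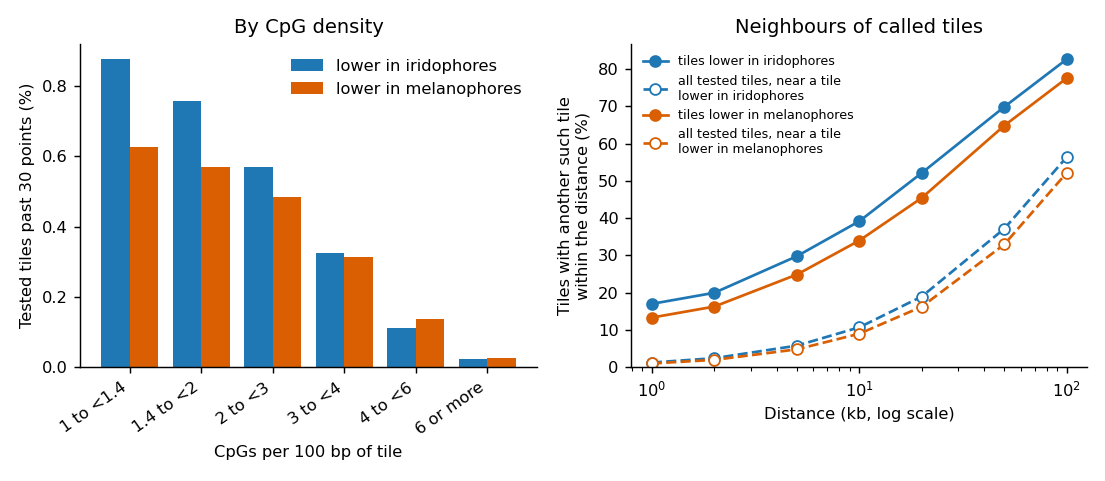
Left, share of tested tiles (%) that differ by at least 30 points, by CpG density, with bars for each direction. Right, share of tiles (%) with another tile of the stated direction within the distance on the x axis (kb, log scale), for the differing tiles (filled) and all tested tiles (open). The left panel falls from 0.876% and 0.626% in the sparsest tiles to under 0.03% in the densest, and on the right the filled points lie above the open ones at every distance (29.8% against 5.80% at 5 kb for iridophore-low tiles).

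Single tiles nevertheless formed the bulk of both sets. When differing tiles of 1 direction at most 1000 bp apart were merged, the iridophore-low tiles gave 8077 clusters, of which 7294 were 1 tile and 77 held 3 or more. The melanophore-low tiles gave 6589 clusters, of which 6082 were 1 tile and 42 held 3 or more. The difference faded over a short distance. In tiles directly beside an iridophore-low tile the mean difference was -10.6 points and at 1000 bp it was -2.56, while beside melanophore-low tiles it was 9.01 and 1.63 points. Around the centre of iridophore-low tiles the mean CpG level in iridophores climbed from 34.6% to 81.1% at 1050 bp, where melanophores stood at 83.0%.

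**Figure D4:**
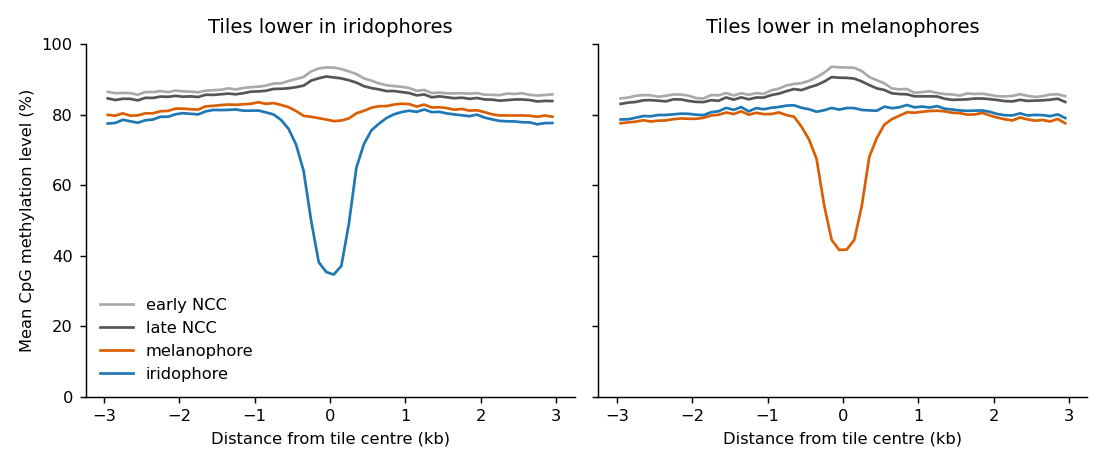
Mean CpG methylation level (%) in 100-bp bins by distance from the centre of iridophore-low tiles (left) and melanophore-low tiles (right), in the 4 libraries. The low cell type dips to 34.6% (iridophore, left) and 41.6% (melanophore, right) at the centre and nears the other pigment cell at about 1 kb, while both NCC lines peak at the centre.

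The single tiles with the largest differences were picked only among those with at least 10 CpGs and at least 200 reads in each library. This limit was not applied to the tiles described at named loci below. Of the tiles within it, 2901 were iridophore-low and 2650 melanophore-low. Larger differences occurred outside this limit, with 2 tiles at -85 to -80 points (iridophore minus melanophore). Within the limit, the 8 largest iridophore-low tiles had levels of 82.9% to 92.4% in melanophores and 9.9% to 20.2% in iridophores. Their late NCC levels ran from 88.3% to 97.4%. The first was chr7:66757001-66757500, where 17 CpGs averaged 84.6% in melanophores (653 reads) and 9.9% in iridophores (492 reads), after 93.5% in late NCCs. The median CpG stood at 89.7% in melanophores and 7.69% in iridophores, and the lowest melanophore CpG (34.4%) was still above every iridophore CpG. Close behind came chr7:9237001-9237500, with 11 CpGs at 89.6% in melanophores and 15.6% in iridophores, and ranges of 80.8% to 94.5% and 5.56% to 29.4%. The early NCC levels of these tiles were 95.3% and 96.0%.

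Within the same limit, the 8 largest melanophore-low tiles had levels of 9.3% to 25.03% in melanophores and 74.6% to 94.4% in iridophores. Their late NCC levels ran from 87.0% to 99.2%. In chr24:27047501-27048000, 15 CpGs averaged 22.2% in melanophores (719 reads, 95% Wilson interval of the pooled reads 17.3% to 23.1%) and 94.4% in iridophores (255 reads, 90.1% to 96.1%), after 99.2% in late NCCs. The CpG ranges were 10.1% to 43.3% in melanophores and 79.2% to 100% in iridophores and did not overlap. The densest of the 8, chr7:73801501-73802000, held 22 CpGs at 9.3% in melanophores and 74.6% in iridophores. In 15 of the 16 tiles every CpG was lower in the same cell type, and in the remaining one (chr3:61886501-61887000) 16 of 17 were. The adjusted p of these 16 tiles (Fisher's exact test, Benjamini-Hochberg) was at most 3.83e-37. The tiles were picked by the size of the difference in the same reads. This p-value and the shared direction of the CpGs are therefore a description.

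The longest iridophore-low cluster was chr10:8760001-8765000, in which 7 of 8 tested tiles differed. Its 70 CpGs averaged 81.3% in melanophores and 48.0% in iridophores, and the 72 measured in late NCCs averaged 89.1%. All 5 tested tiles differed in chr11:439501-444000 (81.5% in melanophores and 31.6% in iridophores), in chr23:15571001-15574500 (77.2% and 31.4%) and in chr2:37225501-37229000 (83.3% and 41.2%). Among melanophore-low clusters the one with the most tiles was chr7:73936501-73943500, where 6 of 13 tested tiles differed. Those 6 averaged 92.1% in late NCCs, with 42.1% in melanophores and 87.4% in iridophores, while all 226 CpGs of the stretch, the tiles between included, averaged 54.8%, 31.7% and 53.2%. The others were shorter, such as chr15:21509501-21512000, with 4 of 5 tiles and 93.7%, 34.2% and 73.3% in the same order, and chr20:41320001-41322500, with 3 of 3 tiles and 91.6%, 28.2% and 77.5%.

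Gene names could be given at loci whose positions the study itself states, which are 10 loci of pigment cell and neural crest regulators and regions at 20 small-molecule biosynthesis genes. Several of these genes are known regulators or markers from earlier work, while ets1 and the alx genes entered through motifs enriched in iridophore-specific regions of this study. Apart from pnp4a, the stretches measured were set by regions that the study had picked as changing in the same libraries. The pnp4a stretch was set by a browser view in which the study shows these same data at an iridophore marker. The counts at all of these, pnp4a included, are a description and no independent evidence of direction. At the 10 loci, 67 of 648 tested tiles (10.3%) were iridophore-low and 4 (0.617%) melanophore-low, against 0.58% and 0.463% of all tested tiles. An iridophore-low tile was found at 9 of the 10 loci and a melanophore-low one at 2 (alx1 and mitfa). No gene coordinates of this build were at hand, so exon, intron and promoter positions are not given. A tile counted at a locus therefore need not lie in the gene.

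The gene pnp4a encodes a purine nucleoside phosphorylase of the guanine pathway and is a marker of iridophores. Of the 11 tested tiles at pnp4a, 5 were iridophore-low and none was melanophore-low. That was the largest iridophore-low share of the 10 loci. However, the stretches differed in length, from 11 tested tiles at pnp4a to 106 at foxd3, so the shares are not a like measure. The most negative difference at pnp4a, -53.5 points, was smaller in size than that of every other locus except mitfa (-32.3) and sox10 (-26.3). In chr11:24057001-24057500, 9 CpGs averaged 93.9% in melanophores (458 reads) and 40.4% in iridophores (316 reads), and 10 CpGs averaged 97.4% in late NCCs. The CpGs ran from 89.7% to 97.4% in melanophores and from 15.9% to 72.7% in iridophores, without overlap. Over the locus the median tile stood at 96.0% in late NCCs, with 67.9% in melanophores and 30.02% in iridophores, so melanophores too lay below the late NCC level.

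The Alx proteins are homeodomain transcription factors, and 3 of their loci were measured. At alx4a, 20 of 88 tested tiles were iridophore-low. The tile with the largest difference there, chr7:26662001-26662500, held 16 CpGs at 95.8% in late NCCs, with 75.9% in melanophores (46.0% to 90.6% among CpGs) and 13.5% in iridophores (7.89% to 25.6%). At alx1, 11 of 96 tiles were iridophore-low, led by chr18:16248001-16248500 with 89.6% in melanophores and 17.3% in iridophores over 7 CpGs. The 1 melanophore-low tile at alx1, chr18:16256501-16257000, had a higher level in iridophores than in late NCCs. Its 9 CpGs averaged 1.5% in melanophores (119 reads) and 39.3% in iridophores (75 reads). The 7 CpGs measured in late NCCs averaged 0% (72 reads, Wilson upper limit 5.1%). At alx4b, 5 of 19 tiles were iridophore-low, with 93.5% against 35.5% in chr18:38327501-38328000.

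At tfec, which encodes a basic helix-loop-helix factor of the Mitf family expressed in the iridophore lineage, 11 of 59 tiles were iridophore-low. In chr4:6010501-6011000, 12 CpGs averaged 94.3% in late NCCs, with 71.1% in melanophores and 11.6% in iridophores. Fewer tiles differed at the homeobox gene gbx2 (4 of 96), at foxd3, a forkhead factor of the early neural crest (6 of 106), and at ets1, an ETS-domain factor (4 of 70). The ets1 locus still held the largest difference of the 10 loci, in chr18:48335501-48336000, where 8 CpGs averaged 90.6% in melanophores and 16.7% in iridophores. At sox10, which encodes an HMG-box factor of the neural crest and its pigment derivatives, 0 of 57 tiles passed 30 points in either direction, a number of tiles in which the shares over all tested tiles would also give few or none. The largest difference there was -26.3 points, in chr3:2000001-2000500, with 69.5% in melanophores and 43.2% in iridophores.

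At mitfa, the locus of the melanophore master regulator, 3 of 46 tested tiles were melanophore-low and 1 was iridophore-low. In chr6:43430001-43430500, 11 CpGs averaged 88.1% in late NCCs, with 38.2% in melanophores (511 reads) and 84.0% in iridophores (370 reads). In 10 of the 11 CpGs the melanophore level was the lower one, and the remaining CpG read 0% in both. The other melanophore-low tiles were chr6:43431501-43432000 (48.3% against 78.5%) and chr6:43419501-43420000 (45.8% against 86.5%, on 82 and 73 reads). The iridophore-low tile lay only a few kb away, in chr6:43434501-43435000, with 69.4% in melanophores and 37.2% in iridophores, and late NCCs stood at 95.3% there.

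**Figure D5:**
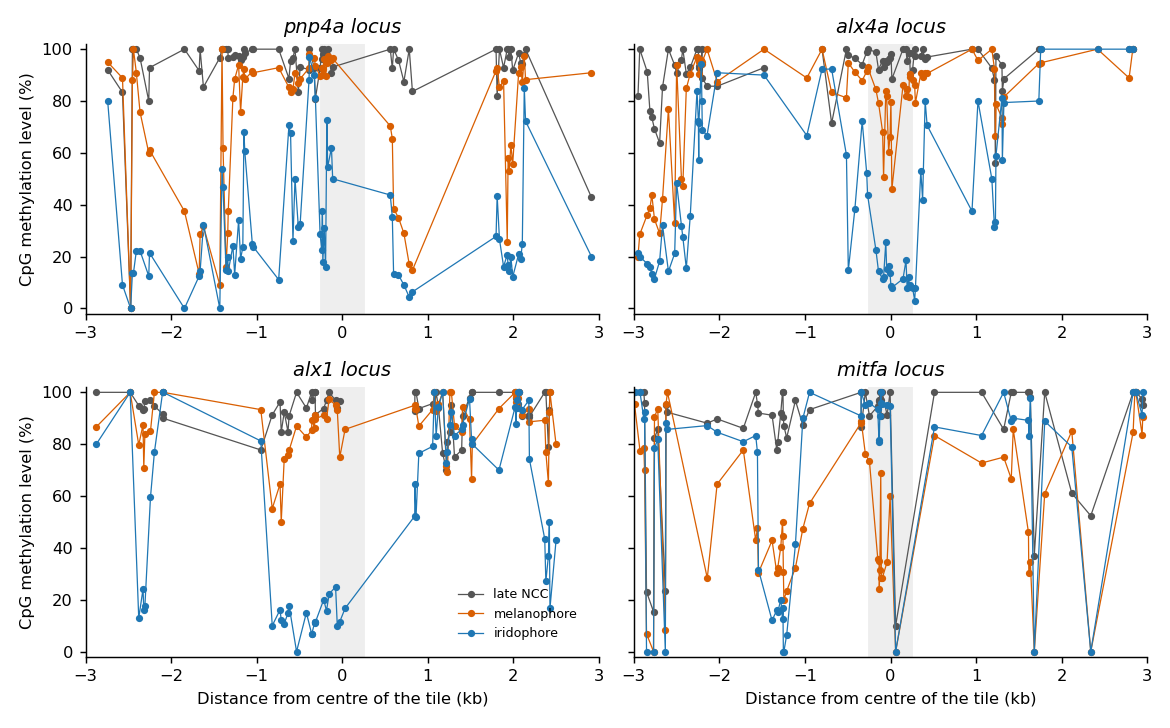
Methylation level (%) of single CpGs with at least 5 reads in both pigment cell types, by distance (kb) from the centre of the tile with the largest difference at pnp4a, alx4a, alx1 (iridophore-low) and mitfa (melanophore-low), in late NCCs, melanophores and iridophores, with that tile shaded. In the shaded tiles the iridophore points average 40.4%, 13.5% and 17.3% at the first 3 loci, against 93.9%, 75.9% and 89.6% in melanophores, while at mitfa the melanophore points average 38.2% against 84.0%.

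The regions at small-molecule biosynthesis genes numbered 48, and 40 of them, at 18 genes, held at least 3 CpGs with 5 reads in both cell types. The study lists such regions where they lie near a promoter, so a region named for a gene need not lie in it. Its list covers genes differentially expressed in iridophores, taken from the gene groups most enriched there. The direction and the metabolic theme therefore follow in part from that list. Among these, 12 regions at 8 genes were at least 30 points lower in iridophores and 1 was as much lower in melanophores. Over all tested tiles the shares were 0.58% and 0.463%. Tiles have a fixed size and a higher CpG minimum, so these shares are not a like measure. Counting any difference, 31 were lower in iridophores and 9 in melanophores, with a median difference of -9.30 points. The medians were 89.7% in late NCCs, with 45.2% in melanophores and 22.6% in iridophores, so both pigment cell medians lay below that of late NCCs.

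Within that list, the regions with the largest differences lay at genes of purine, one-carbon and serine metabolism, and at a few other genes. At mthfd1l, which encodes a mitochondrial enzyme that releases formate for one-carbon metabolism, 2 of the 8 largest were found. The first, chr20:26598166-26598826, stood at 95.8% in late NCCs, with 76.8% in melanophores and 12.7% in iridophores over 10 CpGs, and chr20:26595388-26595822 at 91.2%, 79.3% and 24.6%. At adka, the gene of an adenosine kinase, chr13:25065745-25066937 averaged 76.9% in melanophores and 15.8% in iridophores over 20 CpGs. A region at hprt1l, named for the purine salvage enzyme hypoxanthine phosphoribosyltransferase, averaged 75.8% and 16.1% over 20 CpGs (chr25:36509892-36510796). Late NCCs stood at 94.2% and 94.5% in these. Another hprt1l region, chr25:36555748-36556305, was instead lower in melanophores, at 34.1% against 41.6% in iridophores over 20 CpGs. The 9 regions of that direction, against 31 lower in iridophores, included one at asns (32.7% against 46.7%) and the one at AMDHD1 (24.6% against 36.5%). The mthfd1b region was low in both, at 1.25% in melanophores and 1.93% in iridophores.

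Serine is a donor of one-carbon units, and psat1 and psph encode enzymes of its synthesis. At psat1, chr5:68725544-68726097 stood at 89.5% in melanophores and 35.9% in iridophores. At psph, chr15:503612-504532 stood at 89.8% and 39.3% over 28 CpGs, with 1637 and 1144 reads. The rest of the 8 were a region at acot18, of the acyl-CoA thioesterase family, with 83.1% and 20.8% over only 3 CpGs, and one at pck2, a phosphoenolpyruvate carboxykinase gene, with 67.6% and 22.7% over 8 CpGs. The single region at least 30 points lower in melanophores lay at asl, which encodes argininosuccinate lyase (chr21:31229601-31230258), with 41.6% in melanophores and 73.9% in iridophores after 88.7% in late NCCs. In a combined library a level between 0% and 100% can stand for a share of cells or of alleles, and these cannot be told apart.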

How the data were processed

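WGBS libraries of zebrafish melanophores, iridophores and NCCs were used. For the authors' files, cutadapt trimmed the reads, Bismark mapped them on danRer10, and duplicates were removed with Picard. A script extracted methylation per CpG with both strands combined (tool versions are not given in the sources used here). The deposited files give, for each CpG, the methylation level as a fraction, and the deposited read count behind it, with 2 replicates combined per cell type. Mean coverage ran from 24.0 to 35.2 reads per CpG. Levels were multiplied by reads and rounded to give methylated reads. NCC levels were averaged over the CpGs with at least 5 reads in that library, so their CpG number can differ from that of the pigment cells. Tiles, tests and intervals were computed with Python 3.11.15, numpy 2.4.6, pandas 2.3.3, scipy 1.17.1 and numba 0.67.0. Fisher's exact test was two-sided and Benjamini-Hochberg adjusted over all 1543915 tiles. The functions were tested on simulated data. Wilson 95% intervals cover counting error only, and reads without molecular identifiers may not be independent molecules. A read that covers several CpGs is counted at each of them, so the intervals are also too narrow.

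Tiles described by name were the 8 with the largest difference per direction among those with at least 10 CpGs and 200 reads in each library, clusters were the 8 with the most differing tiles per direction, and of the study's regions the 8 with the largest difference. The 10 loci were placed from region labels and a browser view in the study, the other regions from its supplementary coordinates, and other marker genes were not analysed here. Members and lists were chosen with earlier results of these data known. Alternatives covered coverage, tile size and position, CpG number, threshold, weighting, depth and chromosome 4. ATAC-seq and RNA-seq were not analysed here.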

Additional observations from a re-analysis of the deposited data

How the results depend on the processing

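All 12 alternatives kept more iridophore-low than melanophore-low tiles. The counts stayed within 1.5 times the main values in 8 of 12 alternatives. The exceptions (iridophore-low, then melanophore-low, then the share of differing tiles that were iridophore-low) were 4230, 2729 and 60.8% with 1000-bp tiles, 3090, 2754 and 52.9% with at least 10 CpGs per tile, 20464, 19397 and 51.3% at 20 points, and 1612, 517 and 75.7% at 50 points. That share also left its counting interval with at least 10 reads per CpG (54.0%), with read-weighted levels (53.4%) and with at least 3 CpGs per tile (57.3%). Stricter thresholds and CpG minima leave fewer tiles by construction. The cause of the change in the share was not tested. The mean difference over shared CpGs moved from -0.45 points to -0.39 with at least 10 reads and to -0.28 when weighted by reads, and kept its sign in all 5 alternatives run.

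The median late NCC level ranged from 91.6% to 93.7% for iridophore-low and from 91.9% to 94.4% for melanophore-low tiles. Median CpG density ranged from 1.3 to 2.4 and from 1.3 to 2.6 per 100 bp, with the highest values where at least 10 CpGs were required. The share with a same-direction neighbour within 5 kb ranged from 13.8% to 39.9% and from 3.68% to 38.2%, lowest at 50 points. No paired analysis was possible because the 2 replicates of each cell type were combined in the deposited files, and for the same reason no replicate could be left out. Tiles with fewer than 5 usable CpGs were outside the comparison.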

Other observations

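Differing tiles gathered in some stretches of 1 Mb, which were picked out after their counts were seen. Over 1353 such windows the median was 5 iridophore-low and 5 melanophore-low tiles. The window on chromosome 7 from 43 to 44 Mb held 41 iridophore-low tiles and 2 melanophore-low ones among 1109 tested, and it includes the 4-tile cluster chr7:43671001-43674000, at 78.1% in melanophores and 32.7% in iridophores. The window from 26 to 27 Mb of the same chromosome, where alx4a lies, held 36 and 5. In the other direction, the first Mb of chromosome 12 held 29 melanophore-low tiles and 2 iridophore-low ones, and chromosome 18 from 47 to 48 Mb held 29 and 6. Some windows were rich in both, such as chromosome 9 from 26 to 27 Mb with 17 iridophore-low and 22 melanophore-low tiles. At least 20 iridophore-low tiles were found in 37 windows and at least 20 melanophore-low tiles in 12.

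Across chromosomes the share of tested tiles that were iridophore-low ran from 0.444% on chromosome 22 to 0.764% on chromosome 13, and the melanophore-low share from 0.366% on chromosome 2 to 0.544% on chromosome 18. Tiles in which the higher pigment cell exceeded the late NCC level by at least 30 points numbered 9 among the iridophore-low and 32 among the melanophore-low tiles. These were 0.102% and 0.455% of the tiles measured in late NCCs. Among all tested tiles measured there, melanophores lay that far above late NCCs in 0.0686% and iridophores in 0.0914%. In those 32 the medians were 9.90% in late NCCs, with 28.3% in melanophores and 62.3% in iridophores.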
